A study of Caenorhabditis elegans with 2 samples.

Results

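Peaks of PAX-1 chromatin immunoprecipitation followed by sequencing (ChIP-seq) at divergent promoters of the Caenorhabditis elegans autosomes are described here. Divergent promoters were regions where protein-coding genes start on opposite strands close to each other. From the authors' list of 30000 peaks called on both replicates pooled (build ce11, the same assembly as WBcel235), the 2000 peaks with the highest signal were taken. The signal is the authors' own value for each peak and, with its scale not given in the listing deposited with it, serves only to rank peaks within a list. An autosomal peak was kept when its summit, the highest point the authors gave for it, lay within 500 bp of transcript starts of at least 2 protein-coding genes on opposite strands. This rule left 282 peaks, called members below, which is 14.1% of the 2000 and 16.9% of the 1666 autosomal peaks among them. The other autosomal peaks were 674 at starts of genes on 1 strand only (1-strand peaks) and 710 more than 500 bp from any start (distal peaks). The members were chosen by the pooled signal, so their height is a description and not a finding. No test was run, because the series holds 1 group of 2 replicates, no untagged samples and no read counts. The main counts and shares were instead set beside the same rule applied to each replicate's own list, which gave 282 members in replicate 1 and 211 in replicate 2.

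The samples were whole late embryos of both sexes from strain OP117, which carries the mutation unc-119(ed3) on chromosome III and the insertion wgIs117 that supplies eGFP-tagged PAX-1. Both biological replicates had this genotype and stage, and the labels name no treatment and no exact age. Neither the separation of their cultures nor the promoter and copy number of the transgene is stated by the labels. The antibody is labelled by its target pax-1, while the sample description names the tagged protein. The authors' peak calls also drew on a control alignment, per the deposited listing. In pooled whole embryos, a high signal in few cells and a low signal in many cannot be told apart.

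PAX-1 belongs to the Pax family of transcription factors, which bind DNA through a paired domain; in vertebrates, the relatives PAX1 and PAX9 act in the development of the skeleton and the pharyngeal pouches. At a divergent promoter, the upstream regions of both genes are the same stretch of DNA, so a factor bound there sits upstream of both and a peak alone does not say which gene it concerns. In the compact genome of C. elegans many broadly expressed genes, such as those for ribosomal proteins, lie close to a neighbour. ChIP-seq of many different factors in worm embryos is known to give peaks at shared, highly occupied promoters. No sample of another factor was analysed here.

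To show what the summits looked like, 7 members are printed as the summit base with 75 bases on each side, on the plus strand of ce11, from the RefSeq sequence of WBcel235. They are among the highest members that overlapped a peak of both replicate lists and whose window held no annotated exon, taken from the autosomes for which sequence is printed. Capitals mark CTGCGTC or its reverse complement GACGCAG, the palindrome GCGCGC, and the palindrome TTCNNGAA. CTGCGTC is a motif that recurs under high peaks of this experiment, and it was chosen with that known. TTCNNGAA is the inverted repeat at the core of heat shock elements, the sites of heat shock factors, and was added after the windows were seen. The first 4 hold CTGCGTC. They are drr-2/set-16 at chrIII:13643689-13643839, F44E5.4/F44E5.5 at chrII:11759398-11759548, cup-14/ndub-8 at chrII:13872613-13872763 and mrps-7/Y57G11C.3 at chrIV:14767826-14767976. Each name gives the gene on the minus strand before the gene on the plus strand.
drr-2/set-16: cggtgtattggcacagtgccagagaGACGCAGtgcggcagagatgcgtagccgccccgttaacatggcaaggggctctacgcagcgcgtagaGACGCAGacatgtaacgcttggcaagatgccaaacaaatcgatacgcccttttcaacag
F44E5.4/F44E5.5: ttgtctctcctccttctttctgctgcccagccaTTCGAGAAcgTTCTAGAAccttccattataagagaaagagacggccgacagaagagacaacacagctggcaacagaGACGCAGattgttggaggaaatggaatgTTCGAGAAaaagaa
cup-14/ndub-8: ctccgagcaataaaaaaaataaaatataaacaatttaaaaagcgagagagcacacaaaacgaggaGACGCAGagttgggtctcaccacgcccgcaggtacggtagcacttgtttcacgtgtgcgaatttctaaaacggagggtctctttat
mrps-7/Y57G11C.3: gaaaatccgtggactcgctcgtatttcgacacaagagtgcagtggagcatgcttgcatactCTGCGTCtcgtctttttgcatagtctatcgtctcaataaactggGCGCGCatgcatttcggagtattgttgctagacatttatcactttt

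The other 3 hold no CTGCGTC and stand for ribosomal protein, histone and chaperone promoters, which rank among the highest members. They are rpl-15/K11H12.8 at chrIV:654850-655000, his-61/his-62 at chrIV:7486297-7486447 and C47E8.4/hsp-90 at chrV:14685733-14685883.
rpl-15/K11H12.8: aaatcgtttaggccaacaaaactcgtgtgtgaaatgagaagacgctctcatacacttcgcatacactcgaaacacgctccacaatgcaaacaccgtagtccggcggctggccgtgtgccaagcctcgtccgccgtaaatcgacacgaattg
his-61/his-62: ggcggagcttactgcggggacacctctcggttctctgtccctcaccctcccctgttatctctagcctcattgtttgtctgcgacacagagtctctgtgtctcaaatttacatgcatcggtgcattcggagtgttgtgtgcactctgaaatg
C47E8.4/hsp-90: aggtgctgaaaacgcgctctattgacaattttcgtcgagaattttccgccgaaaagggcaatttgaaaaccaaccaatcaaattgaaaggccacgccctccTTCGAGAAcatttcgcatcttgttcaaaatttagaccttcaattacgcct

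The drr-2/set-16 window held 2 copies of GACGCAG, 47 bp to the left and 20 bp to the right of the summit. The F44E5.4/F44E5.5 window held 1 copy of GACGCAG and 3 matches of TTCNNGAA. The mrps-7/Y57G11C.3 window held 1 CTGCGTC and 1 GCGCGC. The G+C content of these 7 windows ran from 42.4% at C47E8.4/hsp-90 to 56.3% at drr-2/set-16.

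Of the 25 highest members found in both replicate lists, 12 had a cytosolic ribosomal protein gene, 4 a chaperone gene and 3 a histone pair, while 3 had no gene in any list. The gene lists were built from names, and among these 3 they miss the Hsp70 pair F44E5.4/F44E5.5 and the respiratory chain gene ndub-8 (cup-14/ndub-8). The pooled signal of all members ran from 38.5 to 202.7, with a median of 57.4, while the median was 50.9 for 1-strand peaks and 49.5 for distal peaks. The highest member lay between hsp-110, a cochaperone of the Hsp70 system, and rpn-3, a subunit of the proteasome regulatory particle, with its summit at position 8447169 of chromosome III. Its signal of 202.7 ranked 15 in the pooled list, 8 in replicate 1 and 39 in replicate 2. The next member, at position 6972111 of chromosome III, lay between the translation elongation factor gene eef-1A.1 and rfc-4, part of the complex that loads the sliding clamp onto DNA for replication. It had a signal of 191.0 and ranked 12 in replicate 1 and 41 in replicate 2. Between T26A8.4 and pdtf-1, at position 8432952 of chromosome IV, the signal was 168.4, with ranks 10 and 149. Thus all 3 stood among the 150 highest peaks of each replicate on its own.

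Ribosomal protein genes came next. The member between ska-3 and rps-12 had a signal of 158.0 and ranks 19 and 135 in replicates 1 and 2. The member between rpl-15 and K11H12.8 had a signal of 154.3 and ranks 37 and 109, and that between rpl-31 and sac-2 a signal of 151.5 and ranks 38 and 85. The member between rps-0 and rbg-3 had 149.1, with ranks 40 and 177, and that between rps-20 and ekl-4 had 144.0, with ranks 70 and 48. All 5 ranked 177 or higher in both replicate lists. Next by signal were drr-2/set-16 (142.2), where set-16 encodes a histone methyltransferase of the MLL family, and F44E5.4/F44E5.5 (140.9), a pair of Hsp70 genes that the chaperone list, built from gene names, does not contain. Of the 25 highest members found in both replicate lists, the one with the most unequal ranks lay between mig-5, a Dishevelled gene of the Wnt pathway, and cct-1, a subunit of the chaperonin that folds actin and tubulin: it ranked 47 in replicate 1 and 1732 in replicate 2.

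At the lower limit, the last 3 peaks inside the 2000 that met the distance rule were Y81G3A.1/gcn-2 (38.56), F35G12.7/smc-4 (38.54) and ZK643.5/ZK643.2 (38.54). The 3 just outside were rbm-42/grwd-1 (38.43), T24C4.3/clc-20 (38.40) and dus-2/gid-1 (38.39). The signal thus passed through the limit with no step. On the distance side, 17 members had their farther start in the last 50 bp before the limit of 500 bp, and 18 of the 2000 peaks missed the rule with that start up to 50 bp beyond it.

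Most members sat between the starts, often near the middle. The summit lay between the nearest opposite starts at 253 of 282 members (89.7%), and the gene bodies of the pair did not overlap at 269 (95.4%; 96.5% by the rule on replicate 1 and 94.3% on replicate 2). The distance between those starts had a median of 380.5 bp (quartiles 277.25 and 527 bp; medians 375.5 bp in replicate 1 and 398 bp in replicate 2). The rule itself bounds this distance. The smallest value was -93 bp at D2005.3/D2005.4, where the minus-strand start lies to the right of the plus-strand start, and the largest 901 bp at rtfo-1/K09G1.1. The nearer start was a median of 121 bp from the summit and the farther 273 bp. The summit fell a median of 57.5 bp from the midpoint, within 100 bp of it at 194 members (68.8%) and within 200 bp at 270 (95.7%). Neither strand was favoured by a wide margin, with the minus-strand start nearer at 126 members, the plus-strand start at 154 and both equally near at 2.

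**Figure D1:**
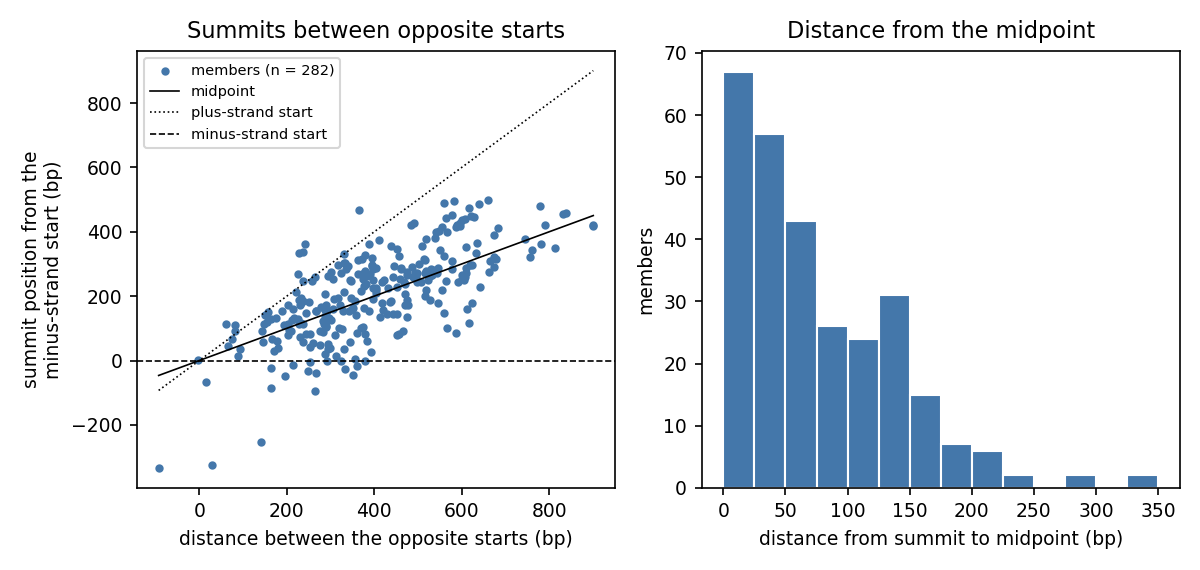
Left, position of each of the 282 summits in bp from the minus-strand start against the distance in bp between the nearest opposite starts, with lines for both starts and the midpoint; right, number of members by distance in bp from summit to midpoint. Most summits lie between the lines of the starts, and 194 lie within 100 bp of the midpoint.

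By the annotation, 225 summits (79.8%) were intergenic, 30 lay in an exon of a protein-coding gene, 12 in an intron and 15 in a non-coding gene only. The cct-6/alh-9 member shows the exon case: its summit, 1 bp inside alh-9, an aldehyde dehydrogenase gene, was 332 bp from the start of the chaperonin gene cct-6. Members covered 571 genes: 273 members had starts of 2 genes and 9 had starts of 3. The pair malt-1/ceh-38, a paracaspase gene and a ONECUT homeobox gene, held 2 members with summits 199 bp apart (ranks 203 and 458), which overlapped the same peak in each replicate list, so these are not independent. Peaks 344 bp wide made up 277 of the 282.

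Among all divergent promoters of the autosomes, those with members were a minority. Adjacent genes that start head to head, minus strand on the left, with non-overlapping bodies and at most 1000 bp apart, formed 1619 pairs. A member lay at 255 of these pairs (15.8%; 16.1% and 11.5% by the rule on replicates 1 and 2), a lower pooled peak that met the same distance rule at 352 more, and neither at 1012. Pairs 301 to 400 bp apart held a member most often, at 58 of 197 (29.4%). The share was 18% at 1 to 100 bp (9 of 50 pairs), 9.63% at 101 to 200 bp, 22.5% at 201 to 300 bp and 0.826% at 901 to 1000 bp. The fall at long distances is partly built in, since both starts must lie within 500 bp of 1 summit.

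**Figure D2:**
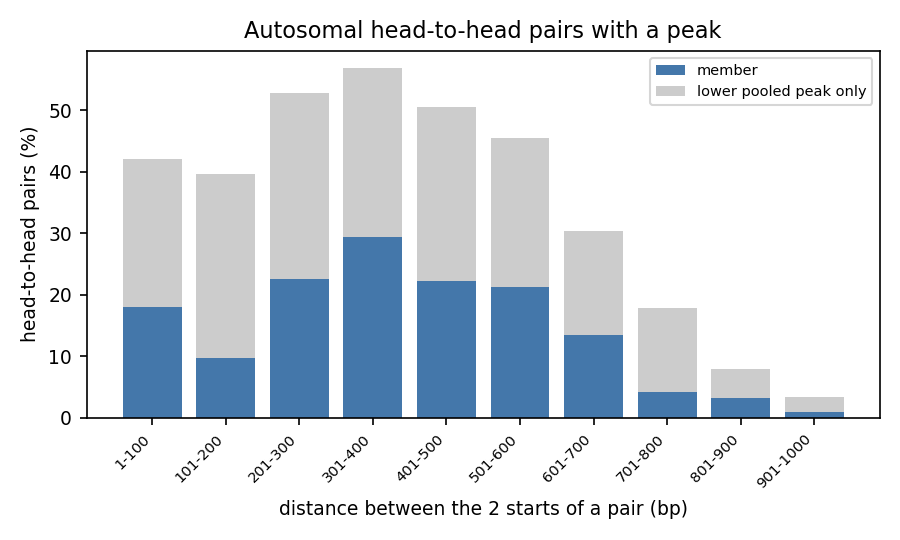
Percent of autosomal head-to-head pairs with a member (blue) or only a lower pooled peak (grey, stacked), in steps of 100 bp of the distance between the starts. Members are most frequent at 301 to 400 bp, with 29.4% of 197 pairs.

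Chromosomes I and III held the largest numbers of members, 75 and 72, against 45 on II, 43 on IV and 47 on V. They also held the largest shares of head-to-head pairs with a member, 22.2% and 22.4%, against 12.5%, 13.4% and 10.4% on II, IV and V. As shares of the peaks among the 2000 on each chromosome, members ranged from 14.4% on IV to 18.8% on III. Chromosome X was outside the rule.

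A larger share of members than of all 2000 peaks recurred in the highest peaks of both replicates. Of the 282, 279 overlapped a peak of the full replicate 1 list and 259 one of replicate 2 (at least 1 bp). Among the 2000 highest peaks of each replicate, 231 members (81.9%) were found in replicate 1 and 173 (61.3%) in replicate 2. In both at once were 133 (47.2%), while 37.5% of all 2000 pooled peaks, 34.7% of 1-strand peaks and 36.8% of distal peaks were. A further 98 were among the 2000 of replicate 1 only, 40 of replicate 2 only and 11 of neither. Members also had a higher median signal than the other classes, and its part in this share was not tested. Across the 256 members present in both lists, the ranks had a Spearman rho of 0.158, beside 0.193 for 1-strand peaks, 0.192 for distal peaks and 0.210 for all 2000. These describe peaks chosen by a signal made from both replicates, and that choice by its construction can lower rho, so nothing about order is read from them. The summits were closer: the offset between the pooled and the replicate summit had a median of 10 bp in replicate 1 and 20 bp in replicate 2.

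**Figure D3:**
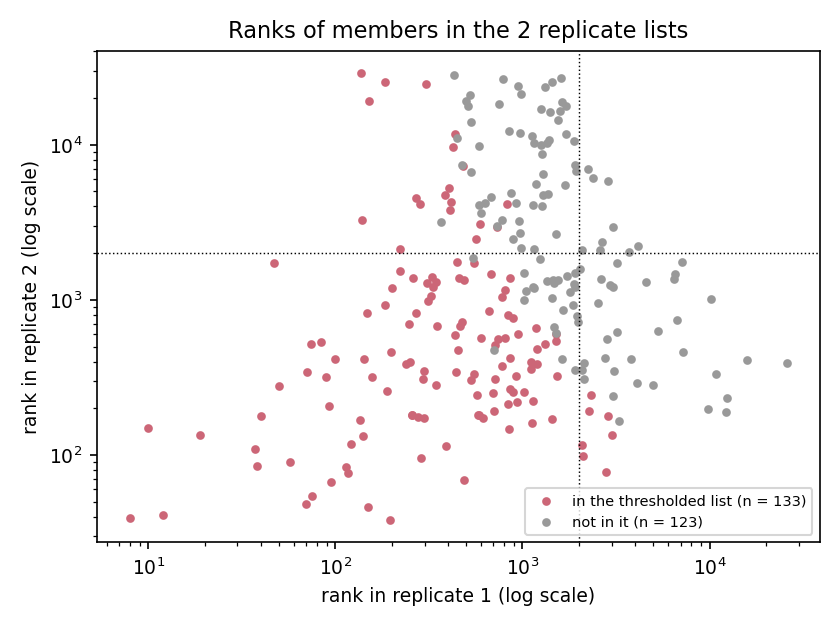
Rank in replicate 2 against rank in replicate 1 for the 256 members found in both lists (log axes, 1 is the highest; dotted lines at 2000). Coloured points are members in the authors' thresholded list; 133 of the 256 are, and the ranks scatter widely.

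The authors' thresholded list, which they derived from the replicate and pooled lists, held 714 peaks, 2.38% of the pooled list. It included 135 members (47.9%), against 35.7% of the 2000 peaks and 33.8% of 1-strand peaks; since it followed the pooled signal too, nothing is read from these shares. In 26 members a replicate had no overlapping peak, and in 23 of them it was replicate 2. The highest of these was pas-3/use-1, at a gene for a proteasome core subunit, with a pooled signal of 84.5 and rank 90 in replicate 1. The member rpt-2/aps-1, at a gene for a proteasome regulatory ATPase, ranked 137 in replicate 1 and 28983 in replicate 2. The opposite case was ift-43/mdt-26, at a Mediator subunit gene, with ranks 2790 and 78.

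Genes for ribosomal proteins, mitochondrial function, chaperones and some other broadly used machinery had starts at members in larger shares than head-to-head genes as a whole. Gene groups were counted by name over 25 lists, and 149 of the 571 genes (26.1%) were in at least 1 of them. A start at a member was found for 3.31% of all 17242 autosomal protein-coding genes and for 16.1% of the 3238 genes in head-to-head pairs, which is the background for the counts below (16.4% and 11.8% by the rule on replicates 1 and 2). These shares are descriptions with no test. Genes of these lists also had starts at 1-strand peaks, so a start at a high peak was not particular to divergent promoters. This held for 21 of 79 autosomal ribosomal protein genes (35 at a member), 13 of 87 chaperones (17) and 13 of 111 mitochondrial genes (19). The share of all autosomal genes at 1-strand peaks was not computed.

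Of 48 head-to-head genes for cytosolic ribosomal proteins, 35 (72.9%) had a start at a member, 34 by the rule on replicate 1 (70.8%) and 26 on replicate 2 (54.2%). With starts required within 250 bp the count was 5 (10.4%), and the share of all head-to-head genes was 6.24%. That fall is partly built in. Of the 32 members with a ribosomal protein gene, 17 had starts over 500 bp apart, which cannot both lie within 250 bp of 1 summit. The 32 members with a ribosomal protein gene had a median signal of 78.0 (39.3 to 158.0), against 54.99 for the other 250. By signal, 22 were in the highest 94 members, 7 in the middle 94 and 3 in the lowest 94. Their starts were a median of 519 bp apart, against 367.5 bp for other members, and their mean G+C was 44.6% against 39.7%. Further examples were tmem-107/rps-26 (signal 133.6), rpl-20/Y17G9B.5 (118.6), rps-19/hsr-9 (117.9), polh-1/rps-22 (109.2) and col-38/rpl-5 (107.3). The summit was farther from the ribosomal protein gene than from its partner. In the 29 members with 1 such gene and 1 other, the median distance was 296 bp to the ribosomal protein start and 183 bp to the partner, and the partner was nearer in 20. This was not particular to ribosomal protein genes. The partner was also nearer in 5 of 5 such members for ubiquitin conjugation and 5 of 6 for splicing. It was nearer in only 1 of 7 for DNA replication and cell cycle and 1 of 5 for the secretory pathway. Annotated starts of C. elegans genes are often those of trans-spliced transcripts, which lie downstream of where transcription begins. Whether this bears on the distances given here, for either gene of a pair, was not tested.

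Chaperones had a start at a member for 15 of 34 head-to-head genes (44.1%; 50% and 38.2% in the replicates). Beside hsp-110 and cct-1, these included the Hsp90 gene hsp-90 (C47E8.4/hsp-90, signal 128.2, ranks 50 and 279) and the chaperonin gene cct-6 (110.9, ranks 135 and 167). The summit was nearer the partner gene in 12 of 14 members with 1 chaperone gene, with medians of 298 bp to the chaperone and 178 bp to the partner. TTCNNGAA was found in the windows of 7 of the 16 members with a chaperone gene (43.8%), hsp-110/rpn-3, C47E8.4/hsp-90, cct-6/alh-9, T10B5.4/cct-7, hsp-16.2/hsp-16.41, cyn-7/bath-36 and mtx-1/dnj-12. Among the other 266 members it was in 20 (7.52%), F44E5.4/F44E5.5 with 3 matches among them. These 266 also hold chaperone genes that the list misses and whose windows had no match, as at imp-2/enpl-1 and sip-1/sly-1. Both shares thus hold for the list as built from names. TTCNNGAA was in 9.33% of windows at the midpoint of all 1619 pairs and in 11.8% at the midpoint of the 255 pairs with a member. Of members with a mitochondrial gene, 4 of 19 (21.1%) held it, and of those with a ribosomal protein gene 0 of 32. This motif was searched after the windows had been seen.

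Genes for the mitochondrial ribosome and respiratory chain had a start at a member in 19 of 42 cases (45.2%; 50% and 31.0% in the replicates). Examples were mrps-7/Y57G11C.3 (signal 107.6), Y71H2AM.20/cox-6B (85.6), mrps-6/rpn-8 (70.7) and vbh-1/mrpl-17 (70.6), where the mrps and mrpl genes encode subunits of the mitochondrial ribosome and cox-6B one of cytochrome c oxidase. The list does not contain the respiratory chain genes ndub-8, ndua-8 and ndua-2, although cup-14/ndub-8, rbc-2/ndua-8 and dnj-29/ndua-2 were members. Its shares thus cover the listed genes only. Proteasome genes stood at 7 of 20 (35%; 45% and 25%), with hsp-110/rpn-3 the highest. RNA polymerase II, general factors and Mediator stood at 5 of 12 (41.7%; 33.3% and 25% in the replicates), among them taf-11.3/urm-1 (72.2) and pas-4/rpb-3 (66.6), and chromatin genes at 8 of 22 (36.4%; 50% and 31.8%). The RNA polymerase II list, built from names, also labels the member tdpt-1/tfg-1. Its gene tfg-1 acts in secretion and is no transcription factor, so this small group's share is to be read with care. Chromatin members included rpl-12/lin-54 (98.8), at a DREAM complex gene, lin-53/nra-2 (98.2), at a histone-binding protein gene, and hda-6/F41H10.4 (87.9), at a histone deacetylase gene.

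Other groups were nearer the background. Translation factors and tRNA synthetases had a start at a member for 6 of 31 head-to-head genes, splicing genes 6 of 29, the vacuole and autophagy group 5 of 17, the secretory pathway 5 of 19, ubiquitin conjugation 4 of 17, and DNA replication and cell cycle 5 of 29. By the rule on replicates 1 and 2, the shares were 22.6% in both for translation factors, 44.8% and 20.7% for splicing, 29.4% and 17.6% for the vacuole, 47.4% and 21.1% for the secretory pathway, 17.6% and 11.8% for ubiquitin conjugation, and 17.2% and 10.3% for replication. The groups other than translation factors thus had lower shares in replicate 2, where the background was lower too. Examples were clsp-1/eef-2 (signal 103.4), at the elongation factor gene eef-2, rsp-3/spin-4 (85.2), at a splicing regulator gene of the SR family, and vps-51/lin-35 (72.4), where lin-35 is the worm retinoblastoma gene. In the ubiquitin group, vps-25/uba-2 (71.0), at a gene for a sumoylation enzyme subunit, was the highest, followed by usp-3/rps-6 (69.0), at a deubiquitinase gene. The replication and cell cycle list takes genes such as cdk-5 by name, whether or not they act in the cell cycle. Its highest members were eef-1A.1/rfc-4 and cdk-5/kel-3 (94.2, ranks 486 and 69). It also included cdc-6/acin-1 (58.1), at a gene that licenses replication origins. For histones the count was 9 of 61 (14.8%), near the 16.1% of all head-to-head genes. It was 13 (21.3%) by the rule on replicate 1, above that list's background of 16.4%, and 7 (11.5%) on replicate 2. The pairs his-61/his-62 (136.7), his-31/his-32 (121.2) and his-67/his-68 (115.2) were among the 25 highest members. Histone genes are near-identical copies, as are some Hsp70 and hsp-16 genes, so reads may be shared or lost between copies; the authors' handling of such reads is not stated in the deposited listing.

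Tissue and developmental lists gave small counts. Nuclear hormone receptors stood at 0 of 18 head-to-head genes, and the bHLH, T-box, forkhead, GATA and Sox group at 0 of 5. Lists for body wall muscle, intestine, pharynx, epidermis and neurons held 1 to 6 head-to-head genes each and had 0 at a member, so their counts are too small to read. Of the 8 autosomal Pax genes, 0 were in a head-to-head pair and 0 had a start at a member. The homeobox gene ceh-38 was at a member, 1 of 4. Collagens stood at 2 of 20, col-38/rpl-5 and col-71/Y49F6B.2 (74.0). Their count was 4 (20%) by the rule on replicate 1, above its background of 16.4%, and 1 (5%) on replicate 2. The germline list stood at 3 of 30 (10%; 10% and 6.67% in the replicates), spn-4/spe-39 (87.9), Y53C12B.1/nos-3 (60.6) and pas-7/puf-12 (59.2).

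**Figure D4:**
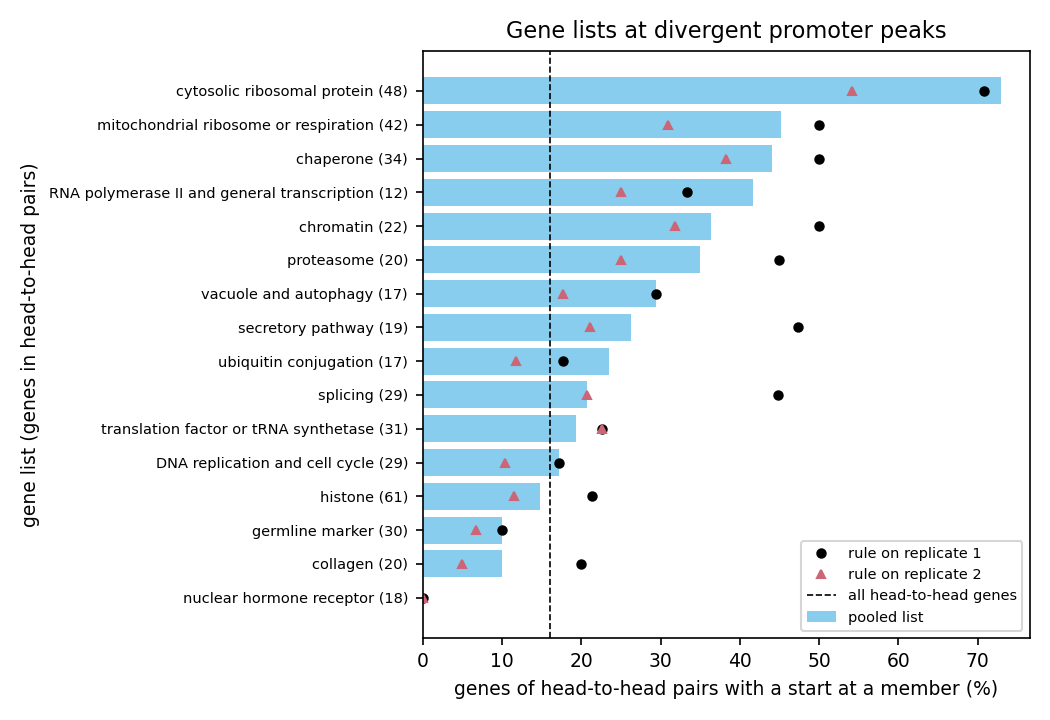
Percent of genes in autosomal head-to-head pairs with a start at a member, by gene list with at least 10 such genes (number in brackets); bars give the pooled list, points the rule applied to each replicate. The dashed line marks 16.1%, the share of all 3238 head-to-head genes; cytosolic ribosomal proteins reach 72.9%.

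At 8 members both genes were in the same list, of 49 such pairs in the genome set. That is near the 15.8% of all 1619 head-to-head pairs that held a member. The 49 pairs mix lists with unlike shares, such as 14.8% for histone genes and 72.9% for ribosomal protein genes. They were not split by list, so nothing is read from this count. F44E5.4/F44E5.5 is not counted, since its names are in no list. Besides the 3 histone pairs above, the 8 members were his-4/his-3 (signal 42.2, rank 722 in replicate 1 and no peak in replicate 2), rps-14/rpl-36 (109.1), rps-10/rpl-24.1 (107.3), rpl-39/rps-30 (79.4) and hsp-16.2/hsp-16.41 (60.8). The last is the pair of small heat shock genes that is induced by heat. It had ranks 485 and 1333 in replicates 1 and 2, and its summit lay 8 bp from the hsp-16.41 start and 213 bp from that of hsp-16.2.

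Under the summits, a narrow rise in G+C stood between flanks low in G+C. In bins of 50 bp, mean G+C over members was 44.3% at the summit and fell to 30.7% at 150 bp to the left and 31.6% at 100 bp to the right. Farther out it rose again, to 39.4% and 40.7% at 500 bp, where the flanks enter the genes. Over the summit base and its 75 neighbours on either side, the mean was 40.2% ± 7.12 (SD over 282 members), 41.1% by the rule on replicate 1 and 38.1% on replicate 2. It was 40.1% for 1-strand peaks, 41.3% for distal peaks, 34.97% for the 462 lower pooled peaks at divergent promoters and 33.8% at the midpoint of the 1012 pairs with no such peak. Windows at the midpoint of the 255 pairs with a member, placed like those of the 1012 and not on a summit, had 36.6%. CG dinucleotides numbered 8.77 per window in members, 8.07 in 1-strand peaks and 6.38 in distal peaks. At midpoints they numbered 7.42 for pairs with a member and 4.60 for pairs with no peak. The recovery of fragments in ChIP-seq can vary with G+C, and its part in these differences was not tested.

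**Figure D5:**
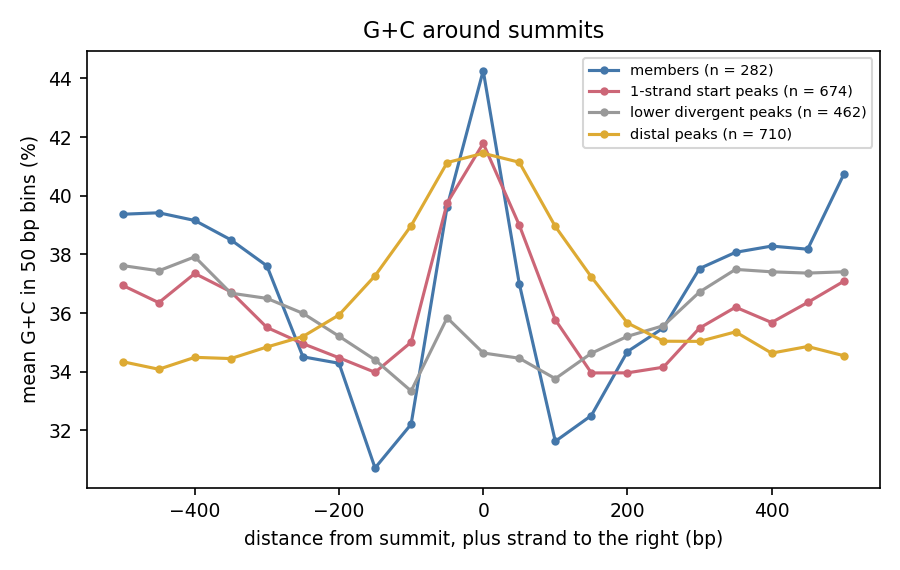
Mean G+C in percent in bins of 50 bp by distance from the summit in bp, for members, 1-strand peaks, lower pooled peaks at divergent promoters and distal peaks. Members peak at 44.3% at the summit and drop to 30.7% at 150 bp to the left, with higher values again toward 500 bp.

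Sequence motifs were searched in the same windows on both strands. CTGCGTC was in 20 of 282 members (7.09%; 7.09% and 7.58% by the rule on replicates 1 and 2). It was in 13.9% of 1-strand peaks (16.5% and 9.23% in the replicates), in 15.2% of distal peaks, in 2.60% of lower divergent peaks and in 2.49% of all 24672 autosomal pooled peaks. At midpoints it was in 2.66% of all 1619 pairs and in 5.88% of the 255 pairs with a member. Members were thus below 1-strand peaks in each list, by a margin that was small in replicate 2. None of the 32 members with a ribosomal protein gene held it, and it was in 8% of the other 250. The 20 members had a median signal of 58.7, against 57.3 for those without. There were 22 matches, 9 in the orientation CTGCGTC and 13 as GACGCAG, of which 9 lay within 25 bp of the summit and 10 read toward the nearer start. T26A8.4/pdtf-1 and drr-2/set-16 held 2 each, and the his-67/his-68 member held 1 at 3 bp from the summit.

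GAGACG and AGAGAC, which overlap the reverse complement of CTGCGTC in the longer AGAGACGCAG, were in 12.1% and 13.8% of members, against 20.3% and 21.2% of 1-strand peaks. By the rule on replicate 1 they were in 15.2% and 14.5% of members, against 23.1% and 23.3%; on replicate 2 in 11.8% and 14.2%, against 14.02% and 14.7%, so the difference for AGAGAC was nearly absent there. GAGAGA was in 16.7% of members, 26.0% of 1-strand peaks and 37.5% of distal peaks, and GATAAG, the site of GATA factors, in 1.42%, 4.45% and 4.79%. Members were below 1-strand peaks for both in each replicate as well, with GAGAGA at 16.3% against 30.1% and 12.3% against 18.5%, and GATAAG at 1.77% against 3.07% and 1.90% against 5.98%. GCGCGC was in 12.4% of members and 11.9% of 1-strand peaks (12.1% and 12.5% in replicate 1, 9.48% and 7.69% in replicate 2). It was in 5.06% of all pair midpoints and in 10.6% of the midpoints of pairs with a member. Some motifs were more frequent in members than in 1-strand peaks in each list. CCGCCC was in 9.22% against 7.27% (8.87% against 7.28% in replicate 1, 8.53% against 4.79% in replicate 2). TTCNNGAA was in 9.57% against 7.72% (8.87% against 5.83% and 13.3% against 8.72%). It was also in 11.3% of lower divergent peaks and in 11.6% of all autosomal pooled peaks, so members of the pooled list were below both. Cores of the vertebrate paired-domain motif were in few windows of any class. GTCACGC was in 3 members (1.06%), in 1.78% of 1-strand peaks and in 0.345% of all autosomal pooled peaks. ACGCNTGA was in 0 members, in 1.48% of 1-strand peaks and in 0.486% of all autosomal pooled peaks. On replicate 2 members were above 1-strand peaks for GTCACGC, with 3 members (1.42%) against 1.20%, and ACGCNTGA was in 1 of 211 members. These counts are too small to read. These matches describe letters in a window and do not mark sites.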

How the data were processed

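ChIP-seq peak lists of 2 replicates of 1 group were used, on build ce11 only; ce10 lists were not used. Per the deposited file listing, the replicate lists (30000 and 29397 peaks) and the pooled list (30000) hold peaks and background, called against a control alignment and meant for the irreproducible discovery rate step, which gave the thresholded list (714) from these 3. The signal values were deposited by the authors; of their scale, the aligner, the peak caller and its threshold, none is stated in the deposited listing or the labels. No read counts were given, so depth is unknown and no interval was computed.

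Peaks were ranked by signal and their summits compared with Ensembl 115 transcript starts. Windows of 75 bp on each side came from RefSeq's WBcel235 sequence; 1 window that the rule for printed sequences chose is not reported here. Of 16 motifs, TTCNNGAA was added after seeing windows. Members, gene lists and motifs were chosen with earlier results of these data known. Named are the 25 highest members found in both replicate lists, up to 4 members per gene list, pairs with both genes in 1 list, members at the rank limit and at the extremes of distance; any other name was chosen once its values had been seen. The rule and the motif search were tested on simulated data. Alternatives were other numbers of peaks, distances, windows, overlaps, starts and lists. Scripts ran under Python 3.11.15 with pandas 2.3.3, numpy 2.4.6, scipy 1.17.1 and matplotlib 3.10.9.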

Additional observations from a re-analysis of the deposited data

How the results depend on the processing

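The number of members was 184 with the 1000 highest peaks, 109 with starts within 250 bp and 135 with the thresholded list, and the genes at them 372, 222 and 272. Applying the rule to 1 replicate's list alone gave 211 to 282 members and 423 to 570 genes. The median distance between starts was 259 bp with starts within 250 bp, 476 bp with 1000 bp and 418 bp with the thresholded list, and 375.5 to 398 bp in single replicates. The share of non-overlapping pairs was 98.5% with 1 start per gene. CTGCGTC was in 9.24% of members with the 1000 highest peaks, 9.17% with starts within 250 bp, 8% of members with no ribosomal protein gene, and 4.61% and 10.3% with windows of 50 and 150 bp per side (7.09% to 7.58% in single replicates). Mean G+C was 42.5% and 36.0% in those windows, and 38.1% to 41.1% in single replicates. With the 1000 highest peaks of each replicate, 27.7% of members were in both. Of pairs up to 500 and 2000 bp apart, 20.98% and 11.1% held a member, and 11.5% to 16.1% in single replicates. For ribosomal protein genes the share was 10.4% with starts within 250 bp, 87.5% with 1000 bp and 58.3% with the thresholded list (54.2% to 70.8% in single replicates). The fall at 250 bp is partly built in, since 17 of the 32 such members had starts over 500 bp apart. These settings for ribosomal protein genes, and the members without such genes, were chosen after seeing the data. Of 69 alternatives, 41 differed from the main value by less than the SD of the 2 replicate values, or stayed within 1.5 times for counts. The 69 include the single-replicate settings themselves, some of which fell outside this limit. No paired analysis was possible because the series has 1 group. Unknown depth limits all shares.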
